A study of Mus musculus with 25 samples.

Results

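The late and the early response of the mouse hypothalamus to a tumor under the skin were set against each other, gene by gene. The quantity is the log2 ratio of tumor over PBS at 192 h after injection minus the same ratio at 18 h. A gene entered with values in at least 3 replicates at each time, which held for 2504 of the 8726 genes named on the arrays. The comparison used 15 of the 25 arrays of the series and 9 of its 13 replicates, 5 at 18 h and 4 at 192 h.

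All mice were BALB/c males aged 8 weeks, with no genetic change given. Tumor mice had 1000000 CT-26.WT cells, which derive from a BALB/c colon tumor, in 300 µl PBS injected under the skin, and their controls had the same volume of PBS alone. Hypothalamus was taken at 18, 72 or 192 h, and every 2-colour oligonucleotide array, printed in-house, carried tumor RNA in one dye and PBS RNA of the same time in the other. PolyA RNA in a single dye orientation served for replicates 1 and 2 at each time, and replicates 3 and above were total RNA hybridised in both orientations. Each ratio was thus taken against PBS RNA of its own time, and the comparison asks whether the response to the tumor differed between the times. The polyA arrays compared shared an array platform that no total RNA array used. Among total RNA replicates compared, 192 h replicate 3 was on a platform of its own and the others shared another. RNA source and array platform therefore cannot be told apart. The labels do not state if a replicate came from 1 animal or several, and the p-values therefore reflect the spread among the samples at hand, which may be technical in part.

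The hypothalamus holds small groups of neurons that make peptide hormones, such as oxytocin, vasopressin, orexin and melanin-concentrating hormone, and through them sets feeding, water balance, stress hormone release and sleep. It senses circulating signals, among them cytokines, glucocorticoids and leptin, and its neurons switch on immediate early genes such as Fos when they are driven. Loss of appetite and weight, which often accompanies advanced tumors, is known to involve it.

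The arrays carried limited signal. Between 3056 and 9839 of 10080 spots per array were measured, and the replicates gave values for 2690 to 7778 genes. The SD of the log2 ratios over genes was 0.91 in 18 h replicate 2, a single polyA array, and 0.21 to 0.56 in the other replicates. The 2 arrays of a total RNA replicate, turned to tumor over PBS, correlated across genes at r from -0.56 to 0.04, so the 2 orientations were averaged, and a dye term stood in the model for the polyA replicates. Hypothalamic peptide genes were unevenly measured, and 14 of 28 precursors could be tested. Oxt and Ucn were above background on 15 of 15 arrays, Pmch on 11 of 12 arrays with a value and Avp on 10 of 12, while Vip was above it on 2 of 6, Pnoc on 1 of 7 and Cort on 0 of 6. The remaining array of 192 h replicate 1 was left out by the rule of the comparison, and its spot brightness followed that of the 15 arrays used with a median Spearman rho of 0.05, against 0.37 among those arrays. The direction of all values is likely rather than settled, because the files call the channels A and B and the dyes were assigned by their order in the labels.

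The replicates of one time shared little. Each r was taken across those of the 2504 genes that were measured in both replicates of the pair. The median r was 0.00 over the 10 pairs within 18 h, -0.07 over the 6 pairs within 192 h and -0.01 over the 20 pairs that join the times. The highest r, 0.52, joined polyA replicate 1 of 18 h to polyA replicate 1 of 192 h, which have tumor in the same dye, and replicates 2 of the 2 times were at 0.31. PolyA replicates 1 and 2, which have opposite dye orientations, were at -0.36 within 18 h and -0.56 within 192 h. Among total RNA replicates all values lay between -0.06 and 0.09. Since genes are not independent of each other, the correlations serve as description only.

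**Figure D1:**
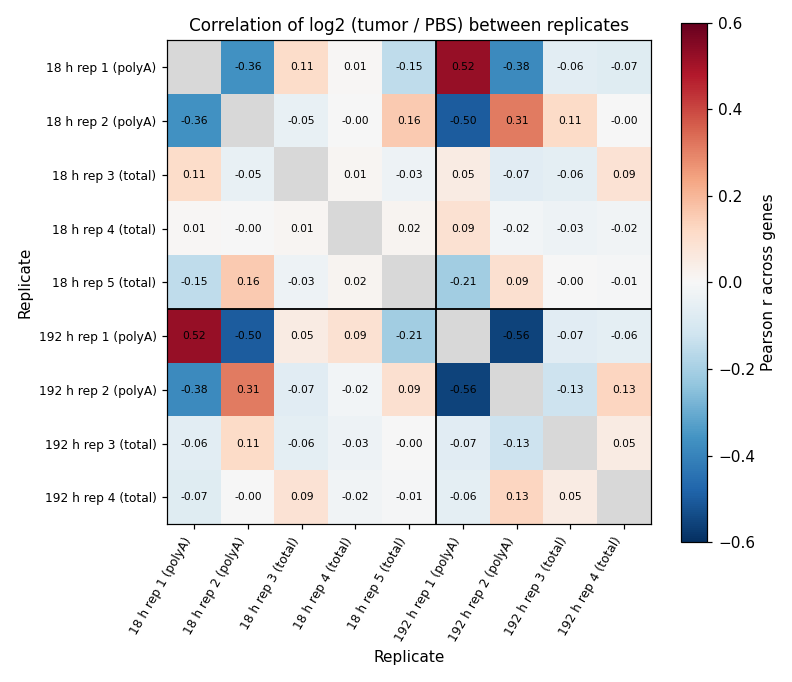
Pearson r between the log2 ratios of tumor over PBS of every pair of replicates, across those of the 2504 genes measured in both. Black lines part 18 h (replicates 1 to 5) from 192 h (replicates 1 to 4); the strong colours lie among polyA replicates 1 and 2 of both times, from -0.56 to 0.52, and total RNA pairs are pale.

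No gene differed between 192 h and 18 h past the threshold. In limma, 0 of 2504 genes (0%) had a Benjamini-Hochberg adjusted p under 0.05, and the smallest adjusted p was 0.898, which the genes with the smallest p-values shared. An unadjusted p under 0.05 was reached by 120 genes, 4.79% of those tested, where about 125 would be reached by chance alone. Of these, 41 (1.64%) were higher at 192 h and 79 (3.15%) were lower. Median centring without loess, which moved the median difference of all genes from -0.03 to -0.13, gave 23 higher and 156 lower. In all, 1145 genes had a higher estimate at 192 h and 1359 a lower one, and the sign of the ratio was the same at both times for 1199 genes (47.9%). The median size of the difference was 0.15 on the log2 scale and its median SE 0.20, so the typical difference was smaller than its error.

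**Figure D2:**
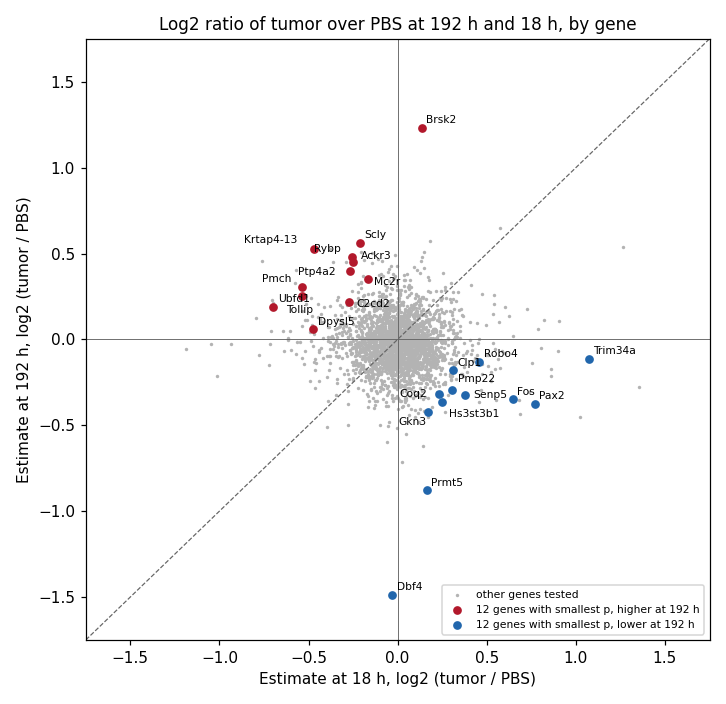
Model estimates of the log2 ratio of tumor over PBS at 18 h (x axis) and 192 h (y axis) for the 2504 genes, each point a gene; on the dashed line the times are equal. The coloured points are the 12 genes with the smallest p in each direction, such as Fos at 0.65 and -0.35 and Pmch at -0.54 and 0.31, and the cloud of other genes shows no slope along the line.

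Fos, the immediate early gene that marks recently driven neurons, lay lower at 192 h than at 18 h. Its replicate values at 18 h were 0.03, 2.53, -0.21, 0.27 and 0.61, and at 192 h they were -1.25, 0.62, 0.18 and -0.94. The groups overlap: 4 of 5 values were above 0 at 18 h and 2 of 4 at 192 h, and the extreme high value is that of 18 h replicate 2. The difference was -0.995 ± 0.323 (SE, n = 5 and 4; 95% interval -1.70 to -0.29; limma unadjusted p = 0.00937, adjusted p = 0.898). It kept its sign in total RNA alone, at -0.60, in polyA RNA alone, at -1.60, and without 18 h replicate 2, at -0.71. The Fos probe was above background on 7 of 15 arrays. Fosb, its close relative, did not share the difference, at 0.19 ± 0.19 (SE), and Jund and Nptx2, an activity-regulated pentraxin, were at -0.10 ± 0.21 and -0.13 ± 0.17. Of the 17 immediate early and activity genes on the arrays, these 4 were tested, and 3 were lower at 192 h.

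Genes that respond to glucocorticoids, the adrenal hormones whose release the hypothalamus controls, could be tested for 3 of 13 members, and none passed. Hsd11b1, which regenerates active glucocorticoid inside cells, was at 1.04, 0.38, 0.33 and 0.26 in the 4 replicates measured at 18 h, and at 0.36, -0.09 and -0.03 at 192 h. All its early values were above 0, and the times overlap through 192 h replicate 1. Its difference was -0.41 ± 0.23 (SE), beside -0.19 ± 0.17 for the metallothionein Mt1 and -0.02 ± 0.27 for Nfkbia, an inhibitor of NF-kB. Mc2r, the receptor for adrenocorticotropin, was one of the 12 genes with the smallest p among those higher at 192 h. It stood at -0.27, -0.11, -0.43 and 0.04 at 18 h and at 0.25, 0.39 and 0.32 at 192 h, so the groups do not overlap. The Mc2r difference was 0.52 ± 0.18 (SE, n = 4 and 3; adjusted p = 0.898 in limma), the probe was above background on 3 of 12 arrays, and print-tip loess lowered the value to 0.20.

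Among the genes that encode neuropeptide precursors, Pmch, the source of melanin-concentrating hormone, which promotes feeding, had the largest difference. It was at -0.51, -0.95 and -0.15 in the 3 replicates measured at 18 h, and at 0.21, 0.80, 0.34 and -0.14 at 192 h. Every early value was below every late value, with a gap of only 0.02 between -0.15 and -0.14, and 3 of the 4 late values were above 0. The difference was 0.84 ± 0.26 (SE, n = 3 and 4; 95% interval 0.26 to 1.42; limma unadjusted p = 0.00867, adjusted p = 0.898). Total RNA had a single value at 18 h, so the estimate rests largely on polyA replicates. It was 0.48 without 18 h replicate 2, 0.39 under print-tip loess and 0.46 with replicates weighted by their quality. In bulk tissue, fewer cells of a type and less RNA per cell cannot be told apart.

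The other 13 precursors had smaller differences, with intervals that all include 0. Of the 28 precursor genes on the arrays 14 were tested, 7 higher and 7 lower at 192 h, with a median of 0.02 beside -0.03 over all genes tested. Only Pmch had an unadjusted p under 0.05. Hcrt, the orexin precursor, which promotes waking and feeding, was at 0.11, -0.34 and 0.15 at 18 h and at 0.39, 0.02, 0.16 and 0.30 at 192 h. All 4 of its late values were above 0, the early ones lay on both sides, and the difference was 0.31 ± 0.18 (SE; 95% interval -0.10 to 0.72), or 0.16 without 18 h replicate 3. Gal, which encodes galanin, ran the other way, at 0.43, 0.45 and 0.01 early and at -0.21, -0.03 and -0.17 late. Its groups do not overlap, and all early values were above 0 and all late values below it, with a difference of -0.44 ± 0.21 (SE; 95% interval -0.91 to 0.03).

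The hormones of the posterior pituitary showed no shift beyond their error. Oxt, the oxytocin precursor, was at 0.03, -0.01, 0.01, 0.18 and -0.19 at 18 h and at 0.07, -0.82, 0.05 and 0.08 at 192 h. Apart from 192 h replicate 2 its values stayed near 0 at both times, and the difference was -0.16 ± 0.18 (SE; 95% interval -0.55 to 0.23). Avp, the vasopressin precursor, differed by -0.22 ± 0.25 (SE; 95% interval -0.78 to 0.34) and had its lowest value, -0.77, in the same polyA replicate. Sst, which encodes somatostatin, an inhibitor of growth hormone release, was also lowest there, at -1.03, and differed by -0.05 ± 0.22 (SE).

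Precursors tied to feeding and stress were spread around 0. Cartpt, whose peptide curbs feeding, differed by 0.05 ± 0.31 (SE), and Nucb2, the source of nesfatin, by 0.00 ± 0.20. Tac1, which encodes substance P, was at 0.48 ± 0.27, with -1.42 in 18 h replicate 2, and total RNA alone gave -0.01. Ucn and Ucn3, the urocortins, which act on receptors of corticotropin-releasing hormone, were at 0.13 ± 0.17 and -0.10 ± 0.15. Adcyap1, which encodes PACAP, was at -0.24 ± 0.23, Nmb, the neuromedin B precursor, at 0.23 ± 0.28, and Gnrh1, the driver of reproductive hormone release, at 0.17 ± 0.22.

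**Figure D3:**
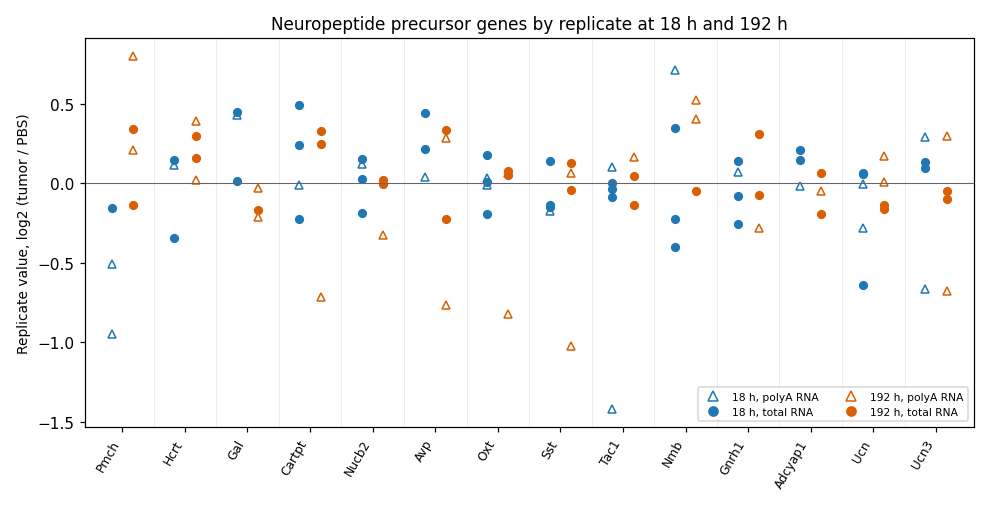
Replicate values of the log2 ratio of tumor over PBS for the 14 neuropeptide precursors tested, 18 h in blue and 192 h in orange, open triangles polyA RNA and filled circles total RNA. Early and late points part for Pmch and Gal and mix for the other genes, and the low late points of Avp, Oxt and Sst are all from 192 h polyA replicate 2.

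Peptide hormones are cut and stored by prohormone enzymes and granins, and 6 of 10 such genes were tested, 4 of them higher at 192 h, with a median difference of 0.23. Cpe, the carboxypeptidase that trims most neuropeptides, was at -0.04, -1.39, 0.18 and -0.50 at 18 h and at 0.22, -0.01, 0.13 and 0.13 at 192 h. The late values were close together, and 1 of the 4 early ones lay among them. Its difference of 0.56 ± 0.24 (SE; limma unadjusted p = 0.0389, adjusted p = 0.898) was 0.28 without 18 h replicate 2 and 0.13 under median centring. Scg3, a granin, was at -0.41, -2.24, 0.00 and 0.19 early and at 0.02, 0.08, 0.04 and -0.11 late, a difference of 0.62 ± 0.39. Pcsk1n, an inhibitor of the convertase PC1, and Qpct, which caps peptides with pyroglutamate, were at 0.23 ± 0.15 and 0.24 ± 0.19, and Scg2 and Chga were at -0.15 ± 0.21 and -0.08 ± 0.22. The median of the list was -0.64 in 18 h replicate 2 and between -0.09 and 0.00 in the 3 other early replicates with at least 5 members measured, and between -0.05 and 0.10 at 192 h. Without 18 h replicate 2 the median difference was 0.13.

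Receptors for neuropeptides and hormones were tested for 11 of 39 genes, 5 higher and 6 lower at 192 h, with a median of -0.09. Mc2r was the single member with an unadjusted p under 0.05. Ntsr2, a neurotensin receptor made mainly by astrocytes, was the lowest by its t value, at -0.33 ± 0.21 (SE, n = 5 and 4). Its early values ran from -0.04 to 0.77 and its late values from -0.67 to 0.15. Galr1, the galanin receptor, was at 0.03 and Npy2r, a receptor of neuropeptide Y, at -0.16.

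Robo4, a guidance receptor of blood vessel endothelium, had the second smallest p among genes lower at 192 h and was among the most evenly measured. Its values were 0.13, 1.13, 0.19, 0.59 and 0.25 at 18 h and -0.44, 0.24, -0.08 and -0.24 at 192 h. All 5 early values were above 0 and 3 of the 4 late values below it, with overlap through 192 h replicate 2. The difference was -0.59 ± 0.15 (SE, n = 5 and 4; 95% interval -0.92 to -0.25; limma unadjusted p = 0.00252, adjusted p = 0.898). It was -0.50 in total RNA alone and -0.73 in polyA RNA alone, and the probe was above background on 15 of 15 arrays. Print-tip loess gave -0.25, median centring -0.34 and the authors' deposited values, read as natural log, -0.22. Other endothelial and mural markers tested, Eng and Rgs5, a pericyte gene, were at -0.20 ± 0.23 and -0.08 ± 0.20, and 3 of 14 such markers on the arrays could be tested.

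Coq2, which attaches the side chain of coenzyme Q in mitochondria, was the gene with the widest gap between the groups among those measured in all 9 replicates. It was at -0.03, 0.55, 0.14, 0.32 and 0.17 at 18 h and at -0.18, -0.38, -0.17 and -0.54 at 192 h. All late values were below 0 and below every early value, and the difference was -0.55 ± 0.16 (SE; limma unadjusted p = 0.00426, adjusted p = 0.898). It was much alike in total RNA alone (-0.57) and polyA RNA alone (-0.54), smaller under print-tip loess (-0.28) and in the authors' deposited values (-0.16), and the probe was above background on 6 of 15 arrays. Of the 386 genes with all 9 values, 3 (0.777%) were lower at 192 h without overlap and 1 (0.259%) was higher. The other lower ones were Tob2, an antiproliferative protein that promotes mRNA decay, at -0.37 ± 0.14, and Mras, a small GTPase, at -0.18 ± 0.13. The higher one was Oxct1, the enzyme that lets tissues burn ketone bodies, whose groups were parted by less than 0.01. Oxct1 differed by 0.16 ± 0.13 and had its sign turned, to -0.19, under median centring.

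Pmp22, a membrane protein of myelinating and other cells, was above 0 in 4 of 4 early replicates (0.33, 0.19, 0.30 and 0.19) and was at -0.73, -0.11, 0.05 and -0.38 late. The groups do not overlap. The difference was -0.60 ± 0.18 (SE; adjusted p = 0.898 in limma), and -0.38 without 192 h replicate 1. Clp1, an RNA kinase of tRNA splicing, and the heparan sulfate sulfotransferase Hs3st3b1 parted at 0, with differences of -0.49 ± 0.16 and -0.62 ± 0.20, but Clp1 turned to 0.10 under print-tip loess. Senp5, a SUMO protease, was above 0 in 3 of 3 early and below 0 in 3 of 3 late replicates (-0.70 ± 0.20), with its probe above background on 2 of 11 arrays.

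Prmt5, an arginine methyltransferase of histones and splicing proteins, stood out by total RNA. It was at 0.01 and -0.05 in early total RNA and at -1.02 and -1.10 in late total RNA, with lone polyA values of 0.34 and -0.33. Its late values were all below its early ones, and the difference was -1.04 ± 0.30 (SE; 95% interval -1.71 to -0.37; adjusted p = 0.898 in limma). For Prmt5 the 2 total RNA replicates at each time carry the estimate, since a single polyA value per time is absorbed by the dye term. Gkn3, a gastrokine, differed by -0.59 ± 0.18 with no overlap.

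Among genes higher at 192 h, Scly, which recovers selenium from selenocysteine, had the smallest p. Its values were 0.15, -0.88, 0.01, -0.13 and -0.21 early and 0.23, 0.37 and 0.64 late. All 3 late values exceeded every early one, and the difference was 0.78 ± 0.17 (SE, n = 5 and 3; 95% interval 0.39 to 1.16; limma unadjusted p = 0.000923, adjusted p = 0.898). Print-tip loess gave 0.49, and the value was 0.61 both without 18 h replicate 2 and in total RNA alone. The Scly probe was above background on 6 of 13 arrays. Tollip, which restrains signalling from Toll-like and interleukin-1 receptors, was at -0.17, -0.79, -1.14 and -0.06 early and at 0.19, 0.13, 0.15 and 0.54 late. Each early value lay below 0 and each late value above it, with a difference of 0.79 ± 0.23 (SE), though the authors' deposited values gave 0.09.

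Ackr3, an atypical receptor that takes up the chemokine CXCL12, was at 0.04, -0.40, -0.57 and -0.06 early and at 0.07, 0.16 and 0.84 late. The groups do not overlap, but the gap was 0.04 wide. Its difference was 0.70 ± 0.22 (SE; adjusted p = 0.898 in limma), it was 0.46 without 192 h replicate 4, and the authors' deposited values turned its sign to -0.09. C2cd2, a C2 domain protein, was below 0 in 5 of 5 early replicates and at 0.21, 0.44 and 0.00 late, with a difference of 0.49 ± 0.17. Rybp, a subunit of Polycomb complexes, was at 0.74 ± 0.25, and Dpysl5, a phosphoprotein of growing axons, at 0.53 ± 0.20, both with overlapping groups.

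**Figure D4:**
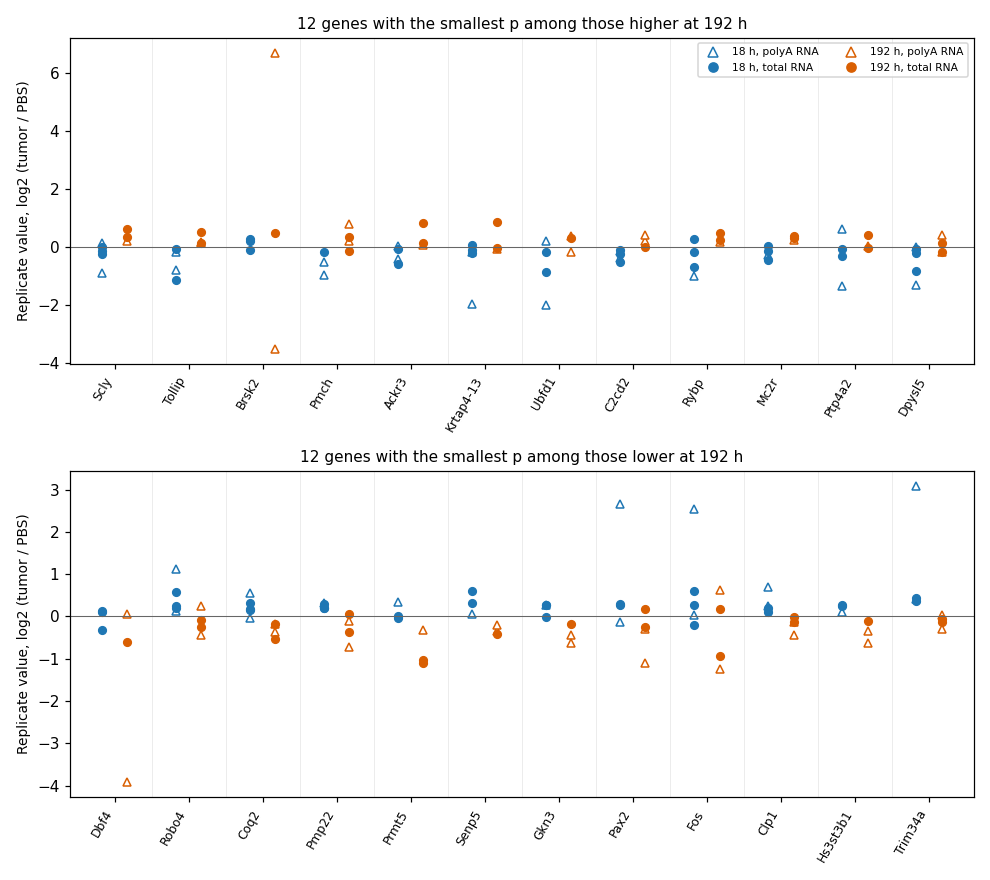
Replicate values of the log2 ratio of tumor over PBS for the 12 genes with the smallest p in each direction, 18 h in blue and 192 h in orange, open triangles polyA RNA and filled circles total RNA. Most values lie within 1 of 0, and the farthest points, such as 6.72 and -3.52 for Brsk2 and 3.09 for Trim34a, are polyA. In total RNA, late Prmt5 (-1.02 and -1.10) and early Tollip (-1.14) also lie beyond 1.

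Several of the largest differences shrank without 1 polyA replicate. Brsk2, a kinase of neuronal polarity, was at -3.52 and 6.72 in late polyA replicates 1 and 2 and at 0.49 in late total RNA, and its estimate of 1.10 ± 0.31 (SE) was 0.36 without either late polyA replicate. Dbf4, the activator of the Cdc7 kinase of DNA replication, was at -3.93 in 192 h replicate 1 and its difference was -0.57 instead of -1.46 without either late polyA replicate. Brsk2 and Dbf4 had no early polyA value, and their late polyA replicates 1 and 2 have opposite dye orientations. The dye term takes up the gap between those values, so the SE does not reflect it. With either one left out, the other is taken up and late total RNA has 1 value. Trim34a, of the interferon-inducible tripartite motif family, and Pax2, a developmental transcription factor, were at 3.09 and 2.65 in 18 h replicate 2, and without it their differences went from -1.18 to -0.55 and from -1.14 to -0.65. The same replicate carried low values of Krtap4-13, a keratin-associated protein (-1.96), Ubfd1 (-1.99) and the phosphatase Ptp4a2 (-1.34). Of the 15 genes with a difference over 1 in size, 4 higher and 11 lower, 18 h replicate 2 held the most extreme value of 10. The part of this replicate's wide spread in these values was not tested.

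The 24 genes with the smallest p had the same direction in both RNA sources where both could be read. The sign was that of the full estimate for 16 of 16 genes with a value in total RNA alone and for 11 of 11 with one in polyA RNA alone, 8 of them in both. These genes were chosen on the sum of the 2 sources, so such a match is favoured by the choice. Over all 584 genes with both, the signs of the 2 sources were opposite in 51.2%. The sources also differed in array platform. For 14 of the 24 the groups do not overlap, which a choice by the smallest p favours too. Over all genes tested, 34 (1.36%) were higher and 71 (2.84%) lower at 192 h without overlap.

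Of 32 cytosolic ribosomal proteins tested, 28 were higher at 192 h and 4 lower, with a median of 0.09, where 45.7% of all genes tested were higher and the median was -0.03. The highest by t was Rpl22, a protein of the large subunit, at 0.39 ± 0.18 (SE), the only member with an unadjusted p under 0.05 (0.0492 in limma, adjusted p = 0.898), and the lowest Rps13, of the small subunit, at -0.25 ± 0.24. Rpl38 was below 0 in 4 of 4 early replicates and above 0 in 4 of 4 late ones, with a difference of 0.30 ± 0.15. The list median was -0.07, 0.06, -0.12, 0.30 and -0.14 in the early replicates and 0.19, 0.13, 0.00 and 0.03 in the late ones. The replicate medians overlap, with 18 h replicate 4 the highest of all 9. The median difference was 0.20 without that replicate, 0.03 in total RNA alone, 0.23 in polyA RNA alone and -0.01 under median centring, still above the median of all genes there.

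The proteasome, which degrades ubiquitin-tagged proteins, had 9 higher and 5 lower of 14 members, with a median of 0.12. Its regulatory ATPase Psmc4 was at 0.54 ± 0.22 (SE; 0.29 without 18 h replicate 2), and Psmd7 was lowest, at -0.23 ± 0.16. Chaperones had 15 higher and 4 lower of 19, with a median of 0.10. Hsp90b1, the chaperone of the endoplasmic reticulum, was at 0.39 ± 0.17 (0.16 without 192 h replicate 2) and Dnajb1 at -0.22 ± 0.20. The proteasome median was 0.01 without 192 h replicate 1, 0.05 without 192 h replicate 2, 0.06 without 18 h replicate 1, 0.07 without 18 h replicate 2, 0.01 in the authors' deposited values and -0.09 under median centring. The chaperone median was 0.19 without 18 h replicate 4, 0.18 without 18 h replicate 5 and 0.16 without 192 h replicate 3. It turned to -0.11 in total RNA alone, -0.09 with spots above background only and -0.04 under median centring. The median of all genes under median centring was -0.13, so both lists were still above it there.

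Oxidative phosphorylation, the respiratory chain of mitochondria, had 21 higher and 21 lower of 42 members, with a median of 0.00, from Cox7a2 at 0.30 ± 0.19 (SE) to Uqcr11 at -0.36 ± 0.18. Translation factors and mitochondrial ribosomal proteins had 14 higher and 21 lower of 35, with a median of -0.06, and Eif4e, which binds the mRNA cap, at 0.31 ± 0.18 against Mrpl28 at -0.38 ± 0.16. Splicing factors had 10 higher and 13 lower of 23. Prpf8, the core of the spliceosome, was at -0.67 ± 0.24, with 1.84 in 18 h replicate 2 and -0.89 in 192 h replicate 1, and Snrpd3, a protein of the snRNP ring, was at 0.42 ± 0.22.

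**Figure D5:**
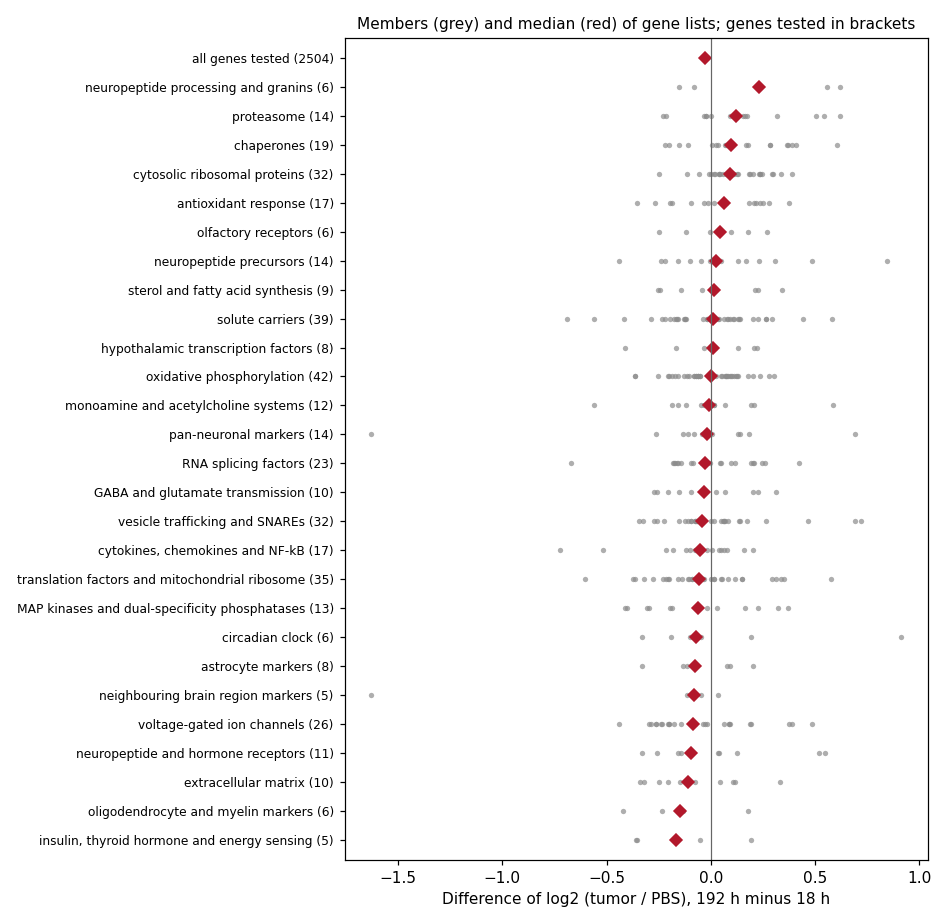
Difference in log2 ratio of tumor over PBS, 192 h minus 18 h, for each member (grey) and the median (red) of the 27 gene lists with at least 5 genes tested, and the median of all genes at the top. All list medians lie between -0.17 and 0.23, well inside the spread of their own members. Each of the 27 medians changed sign (18) or moved by over 1.5 times (9) when some replicate was left out.

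Neuronal signalling genes lay near the median of all genes or slightly under it. Voltage-gated ion channels had 9 higher and 17 lower of 26, with a median of -0.08, from Cacna2d3 at 0.39 ± 0.24 (SE) to Cacna1a, the pore of P/Q-type calcium channels, at -0.44 ± 0.24. Of these channels none had an unadjusted p under 0.05. The channel median was below 0 under the 24 alternatives that left enough channels for one, from -0.24 to -0.01. It was -0.16 without 192 h replicate 1 and -0.05 without 192 h replicate 3. The median of all genes was also below 0 under each of these except polyA RNA alone. For channels and all genes it was -0.135 and -0.134 under median centring, and -0.014 and -0.012 under print-tip loess. In total RNA alone they were at -0.24 and -0.02. GABA and glutamate transmission had 5 higher and 5 lower, with the GABA-making enzyme Gad2 at 0.31 ± 0.21 and the receptor subunit Gabrb1 at -0.27 ± 0.17. Monoamine and acetylcholine systems had 6 and 6, with the nicotinic subunits Chrna6 at 0.59 ± 0.44 and Chrng at -0.56 ± 0.22. Vesicle trafficking had 15 higher and 17 lower of 32, among them Rab4a, a GTPase of recycling endosomes, at 0.46 ± 0.18 and the syntaxin Stx6 at -0.34 ± 0.19.

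Kinase signalling, transport and matrix genes were likewise spread to both sides. MAP kinases and their phosphatases had 5 higher and 8 lower of 13, from Dusp8 (0.37 ± 0.22, SE), whose groups do not overlap, to Map3k12 (-0.40 ± 0.19). Solute carriers had 21 higher and 18 lower of 39, and 3 of the lower ones had an unadjusted p under 0.05, as did 3.15% of all genes tested in that direction. The urate transporter Slc22a12 was at -0.69 ± 0.26, with -1.26 in 192 h replicate 1 (-0.28 without it), and the organic cation exporter Slc47a1 at 0.44 ± 0.21. Extracellular matrix genes had 4 higher and 6 lower of 10, with the collagen Col7a1 at 0.33 ± 0.21 and the brain proteoglycan Bcan at -0.34 ± 0.16. Olfactory receptors, which the hypothalamus hardly uses, had 3 higher and 3 lower of 6, with Olfr65 at 0.27 ± 0.19 over values from -2.30 to 3.35 and Olfr957 at -0.25 ± 0.20. Both of these extreme values of Olfr65 are late polyA with opposite dyes, so the dye term takes up their gap and the SE does not reflect it.

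Inflammatory signalling genes showed no common direction. Cytokines, chemokines and the NF-kB pathway had 7 higher and 10 lower of 17 members tested among 126 on the arrays, with a median of -0.05. Cxcr2, a receptor of neutrophil-attracting chemokines, was at 0.00, 0.81, 0.40 and 0.02 early and at -0.55, -0.27, -0.01 and -0.03 late. Its groups were parted by 0.01, and the difference was -0.52 ± 0.18 (SE; limma unadjusted p = 0.0157, adjusted p = 0.898). Il6ra, a subunit of the interleukin-6 receptor, was at 0.20 ± 0.20, Il1b, a fever-inducing cytokine, at -0.10 and Ccl12 at -0.12. Interferon and antigen presentation genes had 4 of 42 tested, with Isg15, a ubiquitin-like interferon product, at -0.09 ± 0.15, and acute phase and complement genes 2 of 27, Cfi at 0.38 ± 0.23 and Itih3 at -0.05 ± 0.18.

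Metabolic and timing genes were few among those tested. Insulin, thyroid hormone and energy sensing had 1 higher and 4 lower of 5, with a median of -0.17, which was -0.08 without 18 h replicate 4, -0.09 without 192 h replicate 4 and -0.04 with 1 dye orientation accepted. The adiponectin receptor Adipor1 was below 0 in 4 of 4 late replicates (-0.29, -0.85, -0.05 and -0.22) and between -0.05 and 0.05 in all early ones. Its difference was -0.36 ± 0.16 (SE; adjusted p = 0.898 in limma) and was -0.19 without 192 h replicate 2. The insulin receptor substrate Irs2 was at 0.19 ± 0.15. Circadian clock genes had 2 higher and 4 lower of 6, with Nr1d2, a repressor of the clock, at -0.19 ± 0.18 and Clock at 0.91 ± 0.78, with -4.14 in 18 h replicate 2.

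Sterol and fatty acid synthesis had 5 higher and 4 lower of 9 members. Scd2, the main stearoyl-CoA desaturase of brain, was at 0.34 ± 0.16 (SE), with 0.32, -0.63, 0.37 and 0.29 late, and Fads1, another desaturase, at -0.25 ± 0.13. The antioxidant response had 10 higher and 7 lower of 17, with the glutathione transferases Gstp1 at 0.28 ± 0.18 and Gsto1 at -0.36 ± 0.21. Hypothalamic transcription factors had 4 and 4, with Nkx2-2 at 0.22 ± 0.16 and Lmx1b at -0.41 ± 0.20. Cell cycle genes had 3 higher and 1 lower of 4.

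Markers of cell types lay on both sides of 0. Pan-neuronal markers had 5 higher and 9 lower of 14, with a median of -0.02. Their range ran from Camk2a, at -1.63 ± 0.66 (SE) with 4.59 in 18 h replicate 2, to Syp, which encodes synaptophysin, at 0.69 ± 0.38 with -1.91 in 18 h replicate 4. Without those replicates Camk2a was at -0.27 and Syp at 0.12. Astrocyte markers had 3 higher and 5 lower of 8, with a median of -0.07, from Ntsr2 at -0.33 ± 0.21 to the glutamate transporter Slc1a3 at 0.20 ± 0.19. Oligodendrocyte and myelin markers had 1 higher (Mal, 0.18 ± 0.20) and 5 lower of 6, with a median of -0.15 and Tspan2 lowest at -0.42 ± 0.20. That median was 0.06 without 18 h replicate 2 and 0.15 without 192 h replicate 2.

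Markers of other brain regions, the pituitary, blood and microglia were mostly too sparse to test. Neighbouring regions had 5 of 13 tested, 4 of them lower, with a median of -0.08. Their range ran from Camk2a, also a pan-neuronal marker, at -1.63 ± 0.66 (-0.27 without 18 h replicate 2) to Nrgn, a forebrain protein, at 0.03 ± 0.26. Pituitary markers had 4 of 8 tested, with Pitx1, a pituitary transcription factor, at -0.52 ± 0.21. Microglia and macrophage markers had 2 of 19, P2ry12 at -0.01 ± 0.18 and Lyz1 at -0.10 ± 0.21, choroid plexus, ependyma and tanycyte markers 4 of 11, from -0.11 to 0.16, and blood cell markers 2 of 18, the B cell genes Cd79a at -0.32 ± 0.24 and Cd79b at 0.26 ± 0.21. The part of cell makeup in the differences of single genes was not tested.

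A few genes had tumor over PBS on opposite sides of 0 at the 2 times in every replicate measured. There were 8 (0.319%) below 0 early and above it late, and 22 (0.879%) above 0 early and below it late. The first set held Tollip and Cacna2d3, and 6 genes chosen after their values were seen: Rpl38, Hgsnat, a lysosomal acetyltransferase (0.44 ± 0.21, SE), Taf9, a transcription factor subunit (0.45 ± 0.21), Camk2n2, an inhibitor of CaM kinase II (0.76 ± 0.37), Agpat5 (0.21 ± 0.14) and Foxe3 (0.25 ± 0.18). The second set held Senp5, Clp1, Hs3st3b1 and Gal. With 4 or more values at each time, the first set held Tollip, Rpl38 and Agpat5, and the second Clp1 and Mapk6, an atypical MAP kinase named here for this count, at -0.18 ± 0.14 (SE).

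When genes were split into 3 equal parts by signal over background, in the dimmest part the median size of the difference was 0.155 and 54 of 835 (6.47%) had an unadjusted p under 0.05. The middle part had 0.150 and 40 of 834 (4.80%), and the brightest part 0.137 and 26 of 835 (3.11%). The dimmest part also held 9 of the 15 genes with a difference over 1. Of the genes with 2 values at their less measured time, 1893 stayed just outside the minimum, with a median size of the difference of means of 0.20, and of those with 3 values, 1617 were just inside it, with a median of 0.16.

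At 72 h, between the times compared, 2 total RNA replicates gave values for some of these genes. Pmch was at 0.39 in 72 h replicate 3, closer to its late than to its early values. Gal was at 0.22 there, among its early values. Robo4 was at -0.10 in replicate 3, within its late range, and Fos at -0.07 in replicate 4, within the ranges of both times. Tollip was at -0.24 in replicate 3, on the early side of 0, and Pmp22 at -0.02 and -0.06. With 1 or 2 values a gene, these place the genes between the times without a test.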

How the data were processed

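Tumor and PBS hypothalamus RNA was compared on 2-colour arrays, 3 scanner files per array. The deposited intensity values, per the file headers, were spot signals with local background already subtracted by the authors' scanner software, so no further background model was applied; the scanner software is not stated. The authors' deposited value tables hold log ratios with medians near 0 and an unstated base and normalization. Their SD was 0.413 to 0.628 of that of the log2 ratios, which does not settle the base. The authors' deposited values were read as natural log, their making being not stated in labels or headers, and used only as an alternative, so sizes taken from them depend on that reading and signs do not. Their 6 columns of arrays outside the comparison were not used.

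Spots positive in both channels gave log2 ratios, loess-normalized within each scan (span 0.3, 4 iterations). The ratios were averaged over scans and arrays of a replicate, and turned to tumor over PBS. A total RNA replicate had a value for a gene only where both dye orientations gave one. The brightest probe stood for a gene. Between 9066 and 9074 of 10080 spots had 1 gene symbol, 12 several and 994 to 1002 none. limma 3.58.1 in R 4.3.3 fitted each time and the dye orientation, with Benjamini-Hochberg adjustment over 2504 genes. A lone polyA value at a time can be taken up by the dye term, so estimates may differ from plain means, while n counts it. Where only 1 time had polyA values, of opposite dye, the dye term took up the gap between them and the SE leaves it out. The fit was tested on simulated data in which all replicates of a gene had the same spread. The unequal spread of the real replicates was not part of that test. The number of arrays and the dimness of spots limit the precision.

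Members and lists were chosen with earlier results of these data known. Named genes are the 12 with the smallest p in each direction, up to 6 with the widest gap between the times among those with all 9 values, the highest and lowest t of each list with at least 5 genes tested, and all neuropeptide precursors. Other genes named, mostly members of smaller lists, were chosen after their values were seen. The 26 alternatives, 9 of them leaving out a replicate, changed RNA source, dye term, normalization, filters, probe choice, scans and weights.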

Additional observations from a re-analysis of the deposited data

Results flagged for a closer look

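Of 105 groups of 4 or 5 replicate values of the named genes, 24 held a value far from the others. Chance would flag about 5% if all replicates had the same spread and the genes were not chosen on their values. Neither held here, so the count cannot be read against that share. Values are given as log2 tumor over PBS. The part of single arrays in these values was not tested.

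In 18 h replicate 2, a polyA array, 6 values stood apart. Krtap4-13 was at -1.96, Clock at -4.14 and Tac1 at -1.42, far below the other early values. Pax2 at 2.65, Trim34a at 3.09 and Tob2 at 0.33 lay above them.

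The other early flags came from 4 replicates. In replicate 1, Mras at 0.43 and Bcan at 0.50 were high and Chrna6 at -1.15 was low. In replicate 4, Scg2 at 0.89 and Ntsr2 at 0.77 were high and Dusp8 at -0.99 was low. In replicate 3, Tspan2 was low at -0.22. In replicate 5, Gkn3 was low at -0.016 and Sst high at 0.14, where the other early values of Sst lay between -0.18 and -0.14.

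At 192 h, polyA replicate 2 was low for 4 genes. These were Oxt at -0.82, Sst at -1.03, Syp at -0.59 and Scd2 at -0.63, while the other late values of Oxt lay between 0.05 and 0.08. PolyA replicate 1 was high for Rpl22 at 0.38 and Il6ra at 0.29 and low for Prpf8 at -0.89 and Nr1d2 at -0.17. Tollip was high in total RNA replicate 4, at 0.54, with the other late values between 0.13 and 0.19.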

How the results depend on the processing

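The count of genes past an adjusted p of 0.05 in limma was 0 under the settings reported and under all 26 alternatives. The smallest adjusted p was lowest without 192 h replicate 4, at 0.148, and with replicates weighted by quality, at 0.175. Genes at an unadjusted p under 0.05, 41 higher and 79 lower in the report, were 24 and 15 in total RNA alone, 22 and 37 with no dye term, 2 and 13 with spots above background only, 23 and 46 with 1 scan, 3 and 9 with values in every replicate, and 70 and 122 with 1 dye orientation accepted. There were 41 lower in polyA RNA alone and 27 higher in the authors' deposited values. Without 192 h replicate 1 there were 73 higher, without 192 h replicate 4 there were 25 higher, and without 192 h replicate 2 there were 48 lower. The replicate block tested 2276 genes and called 0 (smallest adjusted p 0.941). Pairing was checked on deviations from each time's mean over the 386 genes with all 9 values, a different quantity from the correlations of the ratios themselves. Those of same-numbered replicates 1 to 4 correlated at 0.55, 0.33, -0.20 and -0.08, so not every pair was above 0.1 and the numbers were not taken to pair the samples.

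Some named genes had their sign turned. With RNA type as a covariate these were Nmb (-0.097), Nucb2 (0.0076) and Sst (0.14), and with arrays scaled to one spread Nrgn (-0.077) and Nucb2 (0.0202). In the authors' deposited values they were Ackr3 (-0.088), Rps13 (0.048), Eif4e (-0.0038), Gabrb1 (0.012), Cacna2d3 (-0.042), Rab4a (-0.027), Slc47a1 (-0.051), Clock (-0.15), Nr1d2 (0.22), Irs2 (-0.055), Cartpt (-0.059) and Nucb2 (0.069). Median centring turned Oxct1 (-0.19), Scg2 (0.23), Col7a1 (-0.12), Gstp1 (-0.13), Fads1 (0.054), Slc1a3 (-0.16), Mal (-0.057), Nrgn (-0.0071) and Cartpt (-0.13). No dye term turned Cartpt (-0.17), polyA RNA alone Scg2 (0.29) and Syp (-0.054), print-tip loess Clp1 (0.099) and Nrgn (-0.22), and the replicate block Avp (0.068), Nmb (-0.067) and Sst (0.21). Weights turned Nrgn (-0.34), Nucb2 (0.063), Oxt (0.082), Sst (0.0025) and Ucn (-0.067), spots above background Scg2 (0.0200), and total RNA alone Nrgn (-0.52), Nucb2 (0.0076), Oxt (0.069), Sst (0.093) and Tac1 (-0.0050). With 1 replicate left out in turn, 12 of the 89 named genes changed sign at least once and 51 others moved by over 1.5 times. Of the 27 list medians, 18 changed sign and the other 9 moved by over 1.5 times. The genes whose sign turned were Dnajb1 (-0.36 to 0.026), Scg2 (-0.27 to 0.011), Chrna6 (-0.20 to 0.88), Clock (-0.20 to 1.86), Il6ra (-0.015 to 0.39), Nrgn (-0.26 to 0.25), Cartpt (-0.15 to 0.28), Gnrh1 (-0.0204 to 0.29), Nmb (-0.097 to 0.40), Nucb2 (-0.085 to 0.086), Oxt (-0.24 to 0.058) and Sst (-0.17 to 0.14). The cause was not tested.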
